A study of Mus musculus with 12 samples.

Results

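Lcn2, Ltf, Pigr, Saa1, Saa3, S100a8, S100a9, Lyz2, Hp and Olfm4 encode secreted or granule proteins of mucosal defence and of the acute-phase response. These 10 genes were chosen by name, and each matched 1 of the 39179 Ensembl gene IDs in the deposited table. Of the 10, 8 passed a filter on low values and were tested, and S100a8 and S100a9 did not pass. The data are poly-A RNA sequencing of whole prostate from mice aged 4 months on a hybrid background of 129/SvImJ and C57Bl/6J. All mice of both groups had received paraquat, a herbicide that makes cells generate superoxide and is used to raise oxidative stress. There were 6 libraries from mice null for the gene under study and 6 from wild-type mice. Prostates of untreated mice were not analysed here, so each comparison is between genotypes under paraquat. The values are log2 levels normalized by the authors, and each difference given is that of null less wild type in those log2 units.

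Epithelia that face the outside are guarded by secreted proteins that starve or kill bacteria and by antibody carried into the lumen. Lipocalin 2 binds the siderophores with which bacteria collect iron, and lactoferrin binds iron itself. Lysozyme cuts the bacterial cell wall, and the heterodimer of S100a8 and S100a9, calprotectin, withholds zinc and manganese. The polymeric immunoglobulin receptor carries IgA through epithelial cells into secretions. Serum amyloid A proteins and haptoglobin are acute-phase proteins, made in the liver and also in other tissues when interleukin-1 or interleukin-6 acts through NF-kappa-B, C/EBP factors and Stat3. Several of these proteins are also stored in neutrophil granules or made by macrophages.

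The 6 libraries of each genotype formed 2 tight sets when their values were clustered, with libraries 1 to 3 in one and libraries 4 to 6 in the other. Across genes, 2 libraries of a set differed by a median of 0.0776 to 0.141, libraries of different sets of 1 genotype by 0.274 to 0.352, and libraries of different genotypes by 0.323 to 0.710. The labels do not say which libraries came from separate animals, so the spread within a set may be technical. Each gene was therefore tested by limma over the 12 libraries (n = 6 per genotype) and again over the means of the sets (n = 2 per genotype). A gene is said to rise or fall only where it passed an adjusted p of 0.05 in both analyses. Estimated depth was 14.8 to 20.5 M reads in null libraries and 15.3 to 21.7 M reads in wild-type libraries. Genes with hardly any reads formed a floor with a median of 1.98 and a 95th percentile of 2.92, and below about that level no difference was detectable at this depth.

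Lcn2 and Ltf rose and Olfm4 fell in null prostates, and the other 5 tested genes were higher in null libraries over the 12 libraries without passing over the set means. Over the 12 libraries all 8 tested genes were called, 7 higher and 1 lower, where 65.9% of all 16197 tested genes were called, 34.1% higher and 31.8% lower. Over the set means 3 of the 8 were called, 2 higher and 1 lower, against 4.09% of all tested genes, 2.15% higher and 1.93% lower. These 3 also passed in both analyses together, for which the shares of all tested genes were the same 4.09%, 2.15% and 1.93%. The libraries of the genotypes did not overlap for 6 of the 8 genes, 5 higher and 1 lower, against 44.2% of all tested genes, 21.5% higher and 22.7% lower. The median difference of the 8 tested genes was 1.49, against 0.05 over all tested genes. Ltf and Saa1 passed the filter on low values through their null libraries, and their wild-type libraries alone would have fallen short. Olfm4 passed through its wild-type libraries alone. The filter thus favoured calls in those directions for these genes, which enter the counts and the median above. On a scale of linear values per kilobase of the longest annotated transcript, Pigr stood highest in null libraries at 6579, followed by Lyz2 at 1861, Lcn2 at 1029, Hp at 199 and Ltf at 165. Below them stood Saa3 at 33.1, S100a8 at 20.3, S100a9 at 19.0, Saa1 at 18.6 and Olfm4 at 3.08. In wild-type libraries the same scale gave Pigr 3404, Lyz2 1258, Lcn2 155, Olfm4 146 and Hp 74.1, then S100a9 14.9, S100a8 14.1, Saa3 10.4, Saa1 6.37 and Ltf 3.62. Between null libraries the ranges of Pigr, Lyz2 and Lcn2 did not overlap one another on this scale, while those of Hp, 130 to 296, and Ltf, 88.5 to 297, did. In wild-type libraries the ranges of Lcn2, 98.2 to 194, Olfm4, 80.5 to 269, and Hp, 39.3 to 121, all overlapped one another. S100a8, S100a9, Olfm4 in null libraries and Ltf in wild-type libraries lay so near the floor that their places in the order are uncertain. The places of Saa1 and Saa3 are uncertain too. Their longest transcripts have 2446 and 2200 bases, against 498 for S100a8 and 519 for S100a9, and that of Saa1 covers nearly the whole gene. With shorter transcripts both would stand higher, and which transcripts the reads came from was not tested.

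**Figure D1:**
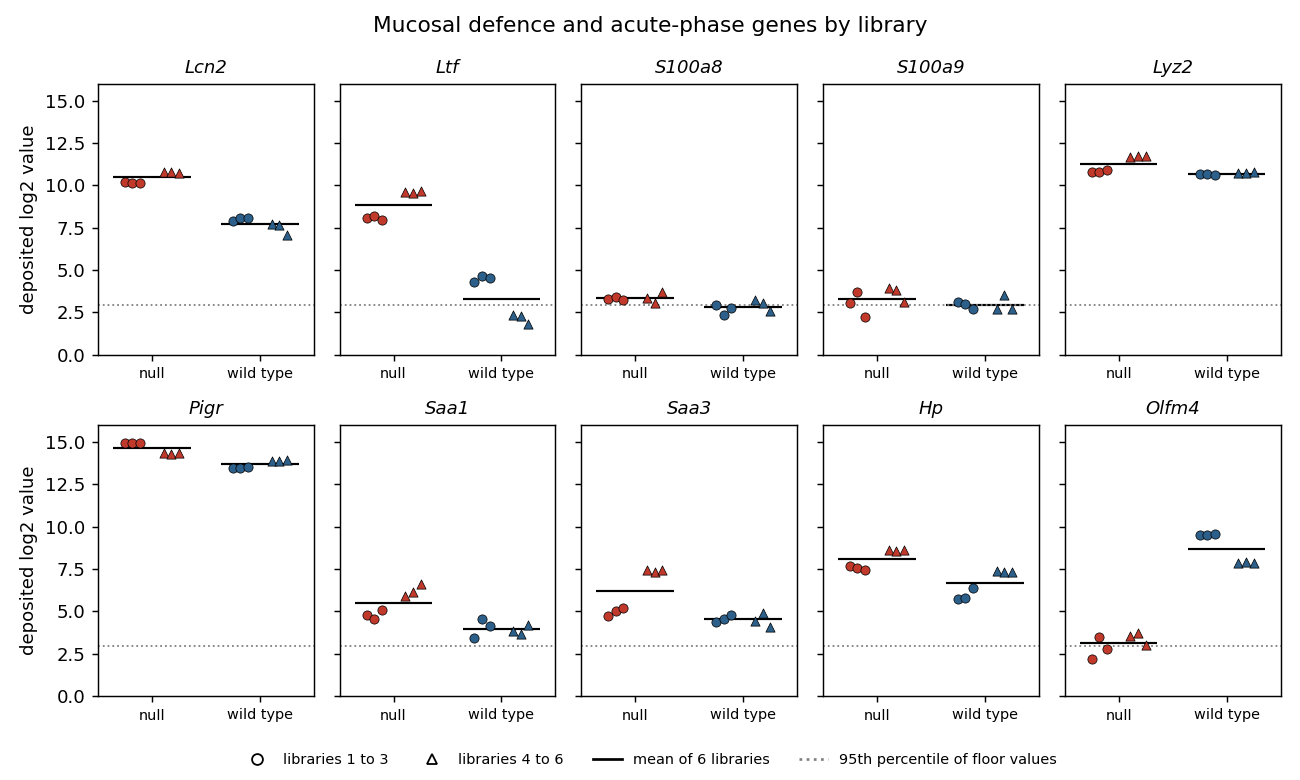
Deposited log2 value of each of the 10 genes in every library, with null libraries left of wild-type libraries, circles for libraries 1 to 3, triangles for libraries 4 to 6, a bar at the mean of 6 libraries and a dotted line at 2.92, the 95th percentile of floor values. Lcn2, Ltf, Pigr, Saa1 and Hp lie higher in every null library than in any wild-type library, Olfm4 lies lower, and S100a8 and S100a9 lie near the dotted line.

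Lcn2, which encodes lipocalin 2 (ENSMUSG00000026822, GRCm38 chromosome 2, 32384633 to 32388252, minus strand), had a lowest, median and highest value of 10.13, 10.47 and 10.79 in null libraries, against 7.08, 7.78 and 8.06 in wild-type libraries. Every null library was thus higher than every wild-type library. The mean was 10.47 ± 0.33 in null and 7.74 ± 0.37 in wild-type libraries (SD, n = 6 each), and the difference of 2.73 is a 6.62-fold higher level. The SE of that difference was 0.18 over the 12 libraries (limma, adjusted p = 6.42e-08) and 0.29 over the set means (limma, adjusted p = 0.0107). The smallest difference between a null set and a wild-type set was 2.17 and the largest was 3.28. RefSeq promoters were searched over 250 bases before the start that RefSeq gives for the gene, on both strands, for GGG and CC with any 5 bases between them (NF-kappa-B like), TTGCNNAA (C/EBP like) and TTCNNNGAA (STAT like). Over 32851 promoter windows of that length, 45.8% held the first kind, 9.56% the second and 7.02% the third. The Lcn2 window held 1 NF-kappa-B-like match, shown here in capitals because this promoter is a textbook target of that factor, at chr2:32387822-32387851 on the minus strand (GRCm38.p6), and 1 C/EBP-like match further upstream. The RefSeq start of Lcn2 lies inside the wider GENCODE span given above, so that 197 of the 250 bases of the window, and 1 of the 30 printed, fall in GENCODE exons.
Lcn2: ggtaaaggatGGACTACCCCgcccaacagg

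Ltf, the gene for lactoferrin (ENSMUSG00000032496, chromosome 9, 111019271 to 111042767, plus strand), ranged from 7.92 through a median of 8.86 to 9.67 in null libraries, against 1.79, 3.29 and 4.64 in wild-type libraries. No library of one genotype reached the range of the other. Within wild type, libraries 4 to 6 averaged 2.14, at the floor, and libraries 1 to 3 averaged 4.48. Ltf averaged 8.83 ± 0.86 in null and 3.31 ± 1.31 in wild-type libraries (SD, n = 6 each), a difference of 5.52 with an SE of 0.56 over the 12 libraries (limma, adjusted p = 3.41e-06) and 0.85 over the set means (limma, adjusted p = 0.0259). Because 3 of the 6 wild-type values lie at the floor, the size of this difference depends on the scale near the floor, and no fold is given. Against the wild-type set above the floor the difference was 3.56 from null libraries 1 to 3 and 5.12 from null libraries 4 to 6. The RefSeq promoter of Ltf held a C/EBP-like match followed within a few bases by 3 overlapping NF-kappa-B-like matches. Both are in capitals in the stretch at chr9:111019172-111019270 on the plus strand (GRCm38.p6), shown because this gene had the largest rise of the 10.
Ltf: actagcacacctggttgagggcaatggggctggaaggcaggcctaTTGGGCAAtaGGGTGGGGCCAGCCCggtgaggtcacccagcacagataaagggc

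Olfm4, which encodes olfactomedin 4, a secreted glycoprotein known from intestinal stem cells and from neutrophil granules (ENSMUSG00000022026, chromosome 14, 79984081 to 80023139, plus strand), went the other way. Its lowest, median and highest values were 2.18, 3.22 and 3.71 in null libraries, against 7.82, 8.70 and 9.56 in wild-type libraries. Null libraries lay around the floor and every wild-type library lay far above it. The mean was 3.11 ± 0.58 in null and 8.68 ± 0.90 in wild-type libraries (SD, n = 6 each). Olfm4 fell by 5.57 on the log2 scale, with an SE of 0.39 over the 12 libraries (limma, adjusted p = 1.15e-07) and 0.58 over the set means (limma, adjusted p = 0.0102). As the null level is near the floor, the drop has no fold beside it. Olfm4 passed the filter on low values through its wild-type libraries alone. In wild type the sets differed by more than 1 unit, with 9.50 in libraries 1 to 3 and 7.85 in libraries 4 to 6. The RefSeq window of Olfm4 lies inside the GENCODE span given above, which starts farther upstream, and 51 of its 250 bases, and 19 of the 30 printed, fall in GENCODE exons. It held 3 overlapping NF-kappa-B-like matches in 1 short run, in capitals at chr14:80000240-80000269 on the plus strand (GRCm38.p6). The stretch is printed because the only gene of the 10 that fell shares these letters with genes that rose.
Olfm4: gctggccatGGGGAAATCCCCactgggagc

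Pigr, the polymeric immunoglobulin receptor (ENSMUSG00000026417, chromosome 1, 130826684 to 130852249, plus strand), was the most abundant of the 10 in both genotypes. It ranged over 14.31, 14.62 and 14.95 (lowest, median, highest) in null libraries, against 13.46, 13.69 and 13.90 in wild-type libraries, with no overlap. The mean was 14.63 ± 0.33 in null and 13.68 ± 0.21 in wild-type libraries (SD, n = 6 each). The difference of 0.95 had an SE of 0.15 over the 12 libraries (limma, adjusted p = 1.51e-04) and of 0.37 over the set means, where it did not pass (limma, adjusted p = 0.147). In the null, libraries 1 to 3 were higher, at 14.93 against 14.33 in libraries 4 to 6, the reverse of the order seen for Lcn2, Ltf, Lyz2, Saa1, Saa3 and Hp. The difference between a null and a wild-type set ran from 0.46 to 1.44. The promoter of Pigr is shown whole as that of the most abundant gene, at chr1:130826434-130826683 on the plus strand (GRCm38.p6). It held 3 NF-kappa-B-like matches, of which a pair overlap close to the gene start, and neither of the other motifs.
Pigr: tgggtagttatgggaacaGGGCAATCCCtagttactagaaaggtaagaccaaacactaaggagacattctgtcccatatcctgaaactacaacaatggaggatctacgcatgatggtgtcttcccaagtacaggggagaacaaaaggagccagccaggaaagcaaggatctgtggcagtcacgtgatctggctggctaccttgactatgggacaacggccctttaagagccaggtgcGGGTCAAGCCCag

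Pigr acts on IgA, so genes of IgA and plasma cells were set beside it. Of 9 tested genes of this list, 4 were called higher and 1 lower over the 12 libraries and 0 in both analyses. Among all tested genes, 34.1% were called higher and 31.8% lower over the 12 libraries and 4.09% in both analyses. An unadjusted limma p under 0.05 over the set means was found for 4 of the 9. The share of all tested genes with such a p was not counted. The list median was 0.26. Sdc1, the syndecan of plasma cells and epithelia, differed by 0.89 (limma over set means, adjusted p = 0.0599), and Jchain, which links IgA into dimers, by 1.24 (limma over set means, adjusted p = 0.0632). Igha, the heavy chain of IgA, stood at 9.50 in null libraries 1 to 3 and 12.71 in null libraries 4 to 6, against 8.61 and 8.95 in the wild-type sets of the same numbers. The IgA heavy chain was thus highest in the null set in which Pigr was the lower, and its difference of 2.33 did not pass over the set means (limma, adjusted p = 0.153). Ccl28, a chemokine that draws IgA plasma cells to mucosae and was singled out after its values were seen, averaged 5.57 and 7.77 in the null sets, against 3.30 and 3.06 in the wild-type sets (limma over set means, adjusted p = 0.0524). Ccl28 had no wild-type value of 4 or more and passed the filter on low values through null libraries alone. It is among the 4 called higher, and the filter favoured that call. In whole tissue, fewer cells of a type and less RNA per cell cannot be told apart.

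**Figure D2:**
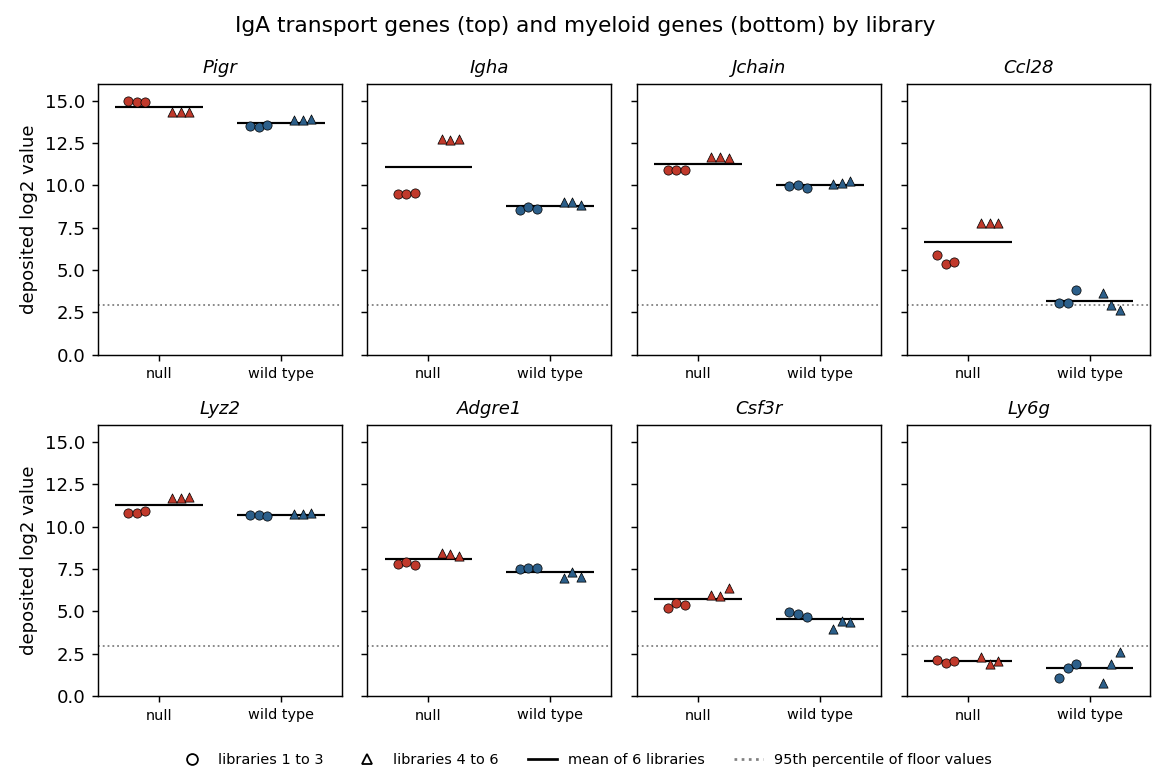
Deposited log2 value in every library of Pigr, Igha, Jchain and Ccl28 (top) and of Lyz2, Adgre1, Csf3r and Ly6g (bottom), with null left of wild type, circles for libraries 1 to 3, triangles for libraries 4 to 6, bars at the means of 6 libraries and a dotted line at 2.92. Igha and Ccl28 are highest in null libraries 4 to 6, where Pigr is below null libraries 1 to 3, and Ly6g, a neutrophil marker, lies below the dotted line in every library.

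The acute-phase genes Saa1, Saa3 and Hp were higher in null libraries, most of all in libraries 4 to 6. Saa1, a serum amyloid A that binds high-density lipoprotein (ENSMUSG00000074115, chromosome 7, 46740497 to 46742980, minus strand), ranged over 4.56, 5.48 and 6.60 in null libraries, against 3.43, 3.96 and 4.56 in wild-type libraries. The ranges nearly touch, since the lowest null and the highest wild-type library agree to 2 decimals. The difference was 1.54, with an SE of 0.34 over the 12 libraries (limma, adjusted p = 0.00159) and 0.52 over the set means (limma, adjusted p = 0.117). Saa2, a close relative next to Saa1, was near the floor at 1.37 to 3.70 in null libraries and 1.78 to 3.01 in wild-type libraries. The longest Saa1 transcript shares 9.8% of its words of 100 bases (230 of 2347) with Saa2, and reads that fit both were treated in a way the sources used here do not give, so the split between Saa1 and Saa2 is uncertain. The near-identity extends into the promoters, shown for that reason as stretches of 150 bases, Saa1 at chr7:46743031-46743180 on the minus strand and Saa2 at chr7:46751632-46751781 on the plus strand (GRCm38.p6). The stretches are identical at 144 of 150 positions (96.0%), and in both the C/EBP-like match comes first and the NF-kappa-B-like match second, in capitals.
Saa1: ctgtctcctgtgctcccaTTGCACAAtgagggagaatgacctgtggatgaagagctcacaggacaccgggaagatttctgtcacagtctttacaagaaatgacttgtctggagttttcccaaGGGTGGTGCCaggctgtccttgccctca
Saa2: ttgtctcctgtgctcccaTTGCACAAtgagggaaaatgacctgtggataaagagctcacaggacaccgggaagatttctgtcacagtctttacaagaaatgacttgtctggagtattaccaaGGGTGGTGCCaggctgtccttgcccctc

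Saa3, a serum amyloid A made locally by macrophages, fat and epithelia in mice (ENSMUSG00000040026, chromosome 7, 46711998 to 46715700, minus strand), ranged over 4.72, 6.26 and 7.44 in null libraries, against 4.10, 4.46 and 4.88 in wild-type libraries. Null libraries 4 to 6 averaged 7.39 and stood apart, while null libraries 1 to 3, at 4.98, overlapped the wild-type range. The difference of 1.67 (SE 0.49 over the 12 libraries, limma adjusted p = 0.00929, and SE 0.75 over the set means, limma adjusted p = 0.182) rests largely on that set. Without null libraries 4 to 6 it was 0.47 (limma over the remaining libraries, adjusted p = 0.0643). Hp, the haptoglobin that binds free haemoglobin (ENSMUSG00000031722, chromosome 8, 109575128 to 109579172, minus strand), ranged over 7.46, 8.09 and 8.64 in null libraries, against 5.73, 6.82 and 7.34 in wild-type libraries. The groups did not overlap, but the sets of each genotype differed by more than 1 unit, with 7.54 and 8.59 in the null sets against 5.96 and 7.32 in the wild-type sets. The Hp difference was 1.43, with an SE of 0.35 over the 12 libraries (limma, adjusted p = 0.00309) and 0.55 over the set means (limma, adjusted p = 0.144), and without null libraries 4 to 6 it was 0.90 (limma, adjusted p = 0.0637).

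Lyz2, the lysozyme of macrophages and neutrophils (ENSMUSG00000069516, chromosome 10, 117277331 to 117282321, minus strand), had values of 10.77, 11.28 and 11.71 in null libraries, against 10.60, 10.70 and 10.77 in wild-type libraries. Null libraries 1 to 3, at 10.82, met the upper end of wild type, and null libraries 4 to 6, at 11.69, lay above it. The difference was 0.56, with an SE of 0.18 over the 12 libraries (limma, adjusted p = 0.0128) and 0.30 over the set means (limma, adjusted p = 0.245). It was 0.13 without null libraries 4 to 6 (limma, adjusted p = 0.0634). The wild-type spread was small, with an SD of 0.06 over 6 libraries. Lyz1, a near copy expressed in Paneth cells of the gut, shares 1.97% of the 100-base words of Lyz2 (24 of 1217). It averaged 6.02 and 7.34 in the null sets, against 6.72 and 7.17 in the wild-type sets, with overlap and a difference of -0.27 (limma over the 12 libraries, adjusted p = 0.432).

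S100a8 and S100a9, the subunits of calprotectin (chromosome 3, 90668978 to 90670035 on the plus strand and 90692632 to 90695721 on the minus strand), stayed near the floor. S100a8 (ENSMUSG00000056054) ranged over 3.04, 3.34 and 3.70 in null libraries, against 2.31, 2.82 and 3.23 in wild-type libraries. S100a9 (ENSMUSG00000056071) ranged over 2.21, 3.40 and 3.94 in null libraries, against 2.67, 2.83 and 3.54 in wild-type libraries. The groups overlap for both genes. When the filter on low values was lifted, S100a8 had an adjusted p of 0.107 and S100a9 of 0.484 over the 12 libraries (limma), and 0.530 and 0.718 over the set means. At this depth no difference in calprotectin genes was detectable.

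**Figure D3:**
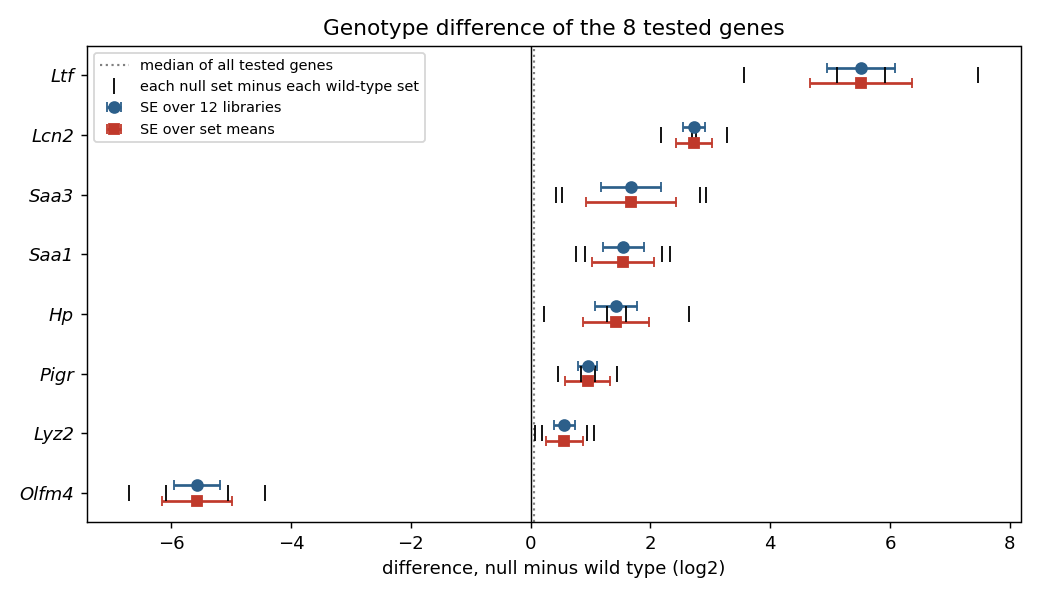
Difference between null and wild type (log2) of the 8 tested genes, with circles and squares at the same difference and bars for its SE in each analysis, ticks for each null set minus each wild-type set, and a dotted line at 0.05, the median of all tested genes. Ticks of Lcn2 and Ltf all lie above 2 and those of Olfm4 all lie below -4. The lowest ticks of Lyz2, Hp, Saa3 and Pigr lie at 0.08, 0.22, 0.42 and 0.46.

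Since neutrophils and macrophages carry several of these proteins, their markers were counted. Of 14 neutrophil markers only 2 were tested, of which Mmp8 passed the filter on low values through wild-type libraries alone. Csf3r, the receptor for granulocyte colony-stimulating factor, was higher (1.17, limma over set means, adjusted p = 0.124), and Mmp8, the neutrophil collagenase, fell by 2.14 (limma, adjusted p = 0.0494 over the set means and 6.53e-06 over the 12 libraries). The Mmp8 call over the set means was lost without null library 2, 3 or 5 or without wild-type library 2, 5 or 6 (limma, adjusted p up to 0.0549), with upper-quartile centring (0.0546), without the filter on low values (0.0556) and with a pseudocount of 16 (0.0630). By their means Mpo, Elane, Ly6g, Fcnb, Ngp, Ctsg and Trem1 were at the floor. The others not tested, Prtn3, Camp, Cxcr2, Retnlg and Cd177, averaged 3.07, 2.64, 2.98, 3.17 and 3.40 in null libraries. In wild-type libraries these averaged 2.55, 2.45, 2.34, 2.61 and 2.87 (limma without the filter over the 12 libraries, adjusted p of 0.142 to 0.722). The summed level of the 14 was 6.86 to 7.41 in null libraries and 6.88 to 7.17 in wild-type libraries. All 15 macrophage markers were tested, and 8 were called higher and 1 lower over the 12 libraries and 0 in both analyses. Among all tested genes, 34.1% were called higher and 31.8% lower over the 12 libraries and 4.09% in both analyses. An unadjusted limma p under 0.05 over the set means was found for 7 of the 15, and its share over all genes was not counted. The median of the 15 was 0.38 and their summed level 12.40 to 12.85 in null libraries and 12.35 to 12.47 in wild-type libraries. Mertk, a receptor for the uptake of dead cells, differed by -0.74 (limma over set means, adjusted p = 0.0753) and Cx3cr1, the fractalkine receptor, by 1.19 (limma over set means, adjusted p = 0.0669). The part of macrophages in the values of Lyz2 and Saa3 was not tested. Of 6 tested red cell and liver markers, 1 was called higher and 0 lower over the 12 libraries and 0 in both analyses, where 0 had an unadjusted limma p under 0.05 over the set means. The gene called, Alas2, the erythroid enzyme of haem synthesis, differed by 0.80 and Ttr, the thyroxine carrier transthyretin made in liver, by 0.53.

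Markers of epithelia, which secrete most of these proteins in glands, were counted as well. Among all tested genes, 34.1% were called higher and 31.8% lower over the 12 libraries, and 2.15% higher and 1.93% lower in both analyses. Of 8 markers of proximal luminal prostate cells, 8 were called higher over the 12 libraries and 6 in both analyses, with a median of 1.804. Among them Psca rose by 4.999, Clu by 3.68 and Ppp1r1b by 1.91. Their summed level was 16.18 to 16.43 in null libraries and 12.63 to 13.25 in wild-type libraries. Of 8 seminal vesicle genes, 8 were called higher over the 12 libraries and 5 in both analyses, with a median of 9.42. All 8 passed the filter on low values through their null libraries, and the wild-type libraries alone would have fallen short for each. Svs3a, Svs3b, Svs6 and Akr1b7 had no wild-type value of 4 or more. The filter thus favoured a higher call for all 8 genes. The summed level of the 8 was 21.43 in null libraries 1 to 3 and 16.84 in null libraries 4 to 6, against 7.64 and 6.00 in the wild-type sets. In null libraries 1 to 3 the sum is carried by Svs2, at 21.03. In null libraries 4 to 6 Svs2 stood at 11.37 and the sum is carried by Svs4, at 16.43. The 8 genes do not share 1 order of the null sets. Svs4, at 14.58 and 16.43, Svs3a, at 11.78 and 13.65, and Svs3b, at 11.38 and 11.65, were higher in null libraries 4 to 6. Lcn2, Ltf, Lyz2, Saa1, Saa3 and Hp were higher there as well. Svs2, Svs5 (18.93 and 13.26), Svs6 (9.17 and 8.11), Pate4 (16.73 and 7.86) and Akr1b7 (15.23 and 4.58) were higher in null libraries 1 to 3, as Pigr was. Of 12 general prostate epithelium markers, 5 were called higher and 6 lower over the 12 libraries, and 1 higher (Trp63, a basal cell factor, by 1.44) and 2 lower (the secreted proteins Pbsn, by -7.37, and Msmb, by -2.92) in both analyses. The part of a shift in cell types or of seminal vesicle tissue in the values of the 10 genes was not tested.

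Along the pathway that turns these genes on, no tested cytokine, cytokine receptor or transcription factor passed both analyses. With libraries scaled to their totals, which shifts the median of all genes to 0.37, Osmr, Tnfrsf1b and Cebpa among those named passed both. Of 15 cytokine genes known to drive such responses, 13 were matched in the table and 3 were tested. Csf2, Il6, Il17a, Il17f and Il22 were at the floor. Csf3, the granulocyte colony-stimulating factor, was left out by the filter on low values although it averaged 5.91 in null libraries 1 to 3. It averaged 3.44 in null libraries 4 to 6, against 2.30 and 2.93 in the wild-type sets, with a limma adjusted p, without the filter, of 0.191 by set means and 0.00816 by library. Il1a, also not tested, averaged 3.83 in null and 2.82 in wild-type libraries. Its limma adjusted p, without the filter, was 0.237 by set means and 0.0465 by library. Of the 3 tested, limma called 0 in either analysis, and 0 had an unadjusted p under 0.05. Il1b, the gene for interleukin-1 beta, differed by 0.45 and Lif, which signals like interleukin-6, by 0.10. With scaling to library totals Il1b differed by 0.76 and was called over the 12 libraries (limma, adjusted p = 0.0148). Of 14 cytokine receptor genes, 7 were called higher and 3 lower over the 12 libraries and 0 by set means, where 6 had an unadjusted p under 0.05, with a median of 0.35. Among all tested genes, 34.1% were called higher and 31.8% lower over the 12 libraries and 4.09% by set means. The share of all genes with an unadjusted p under 0.05 was not counted. Osmr, the oncostatin M receptor, differed by 1.03 (limma over set means, adjusted p = 0.0812) and Tnfrsf1b, a receptor for tumour necrosis factor, by 0.98 (limma over set means, adjusted p = 0.0743). Of 15 tested signalling and transcription factor genes, 11 were called higher and 3 lower over the 12 libraries and 0 by set means, where 6 had an unadjusted p under 0.05, with a median of 0.47. Cebpa, a C/EBP factor of acute-phase genes, differed by 1.05 (limma over set means, adjusted p = 0.0631) and Stat3 by 0.36 (limma over set means, adjusted p = 0.220). The 3 called lower were the C/EBP factors Cebpd and Cebpb, at -0.85 and -0.51, and Rela, at -0.32. Their adjusted p was 4.08e-04, 0.0249 and 0.00177 over the 12 libraries and 0.123, 0.332 and 0.272 over the set means (limma).

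Other acute-phase genes were also higher in null libraries where tested. Of 20 such genes 6 were tested, all 6 were called higher over the 12 libraries, and Cp and Lrg1 rose in both analyses. Orm3, an orosomucoid among the 6, passed the filter on low values through its null libraries, which favoured its higher call. Among all tested genes, 34.1% were called higher over the 12 libraries and 2.15% in both analyses. Cp, ceruloplasmin, the copper-carrying ferroxidase, rose by 1.54 (limma over set means, adjusted p = 0.0134), and Lrg1, a leucine-rich glycoprotein, rose by 1.63 (limma over set means, adjusted p = 0.0147). The median was 1.53. Of liver products, Apcs, Fga, Fgg, Crp and Orm2 were at the floor by their means, whereas Fgb averaged 3.67 in null libraries 1 to 3 and lay at the floor, at 1.81, in null libraries 4 to 6, and at 1.79 and 1.86 in the wild-type sets. Of 25 other mucosal defence genes 9 were tested, and their median was -0.27. In both analyses Pglyrp1, a peptidoglycan recognition protein, rose by 2.02, while Defb1, a beta-defensin, fell by 1.21 and Ang, an angiogenin of the ribonuclease A family, fell by 2.28 (limma over set means, adjusted p = 0.0198, 0.0369 and 0.0361). Over the 12 libraries 4 of the 9 were called higher and 3 lower, beside 34.1% and 31.8% of all tested genes. The filter on low values left out genes high in 1 null set. Lpo, lactoperoxidase, averaged 9.03 and 3.46 in the null sets, against 2.67 and 2.36 in the wild-type sets (limma without the filter, adjusted p = 0.0125 over the 12 libraries, 0.211 by set means). Dmbt1, a scavenger receptor protein of mucosal secretions, averaged 3.80 and 6.17 in the null sets, against 3.07 and 1.99 in the wild-type sets (limma without the filter, adjusted p = 0.00279 over the 12 libraries, 0.141 by set means). Of 11 tested receptors and partners of the 10 proteins, 6 were called higher and 1 lower over the 12 libraries and 1 higher in both analyses. That gene, Cd36, a scavenger receptor that binds serum amyloid A, rose by 1.48 (limma over set means, adjusted p = 0.0357), and the list median was 0.29.

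**Figure D4:**
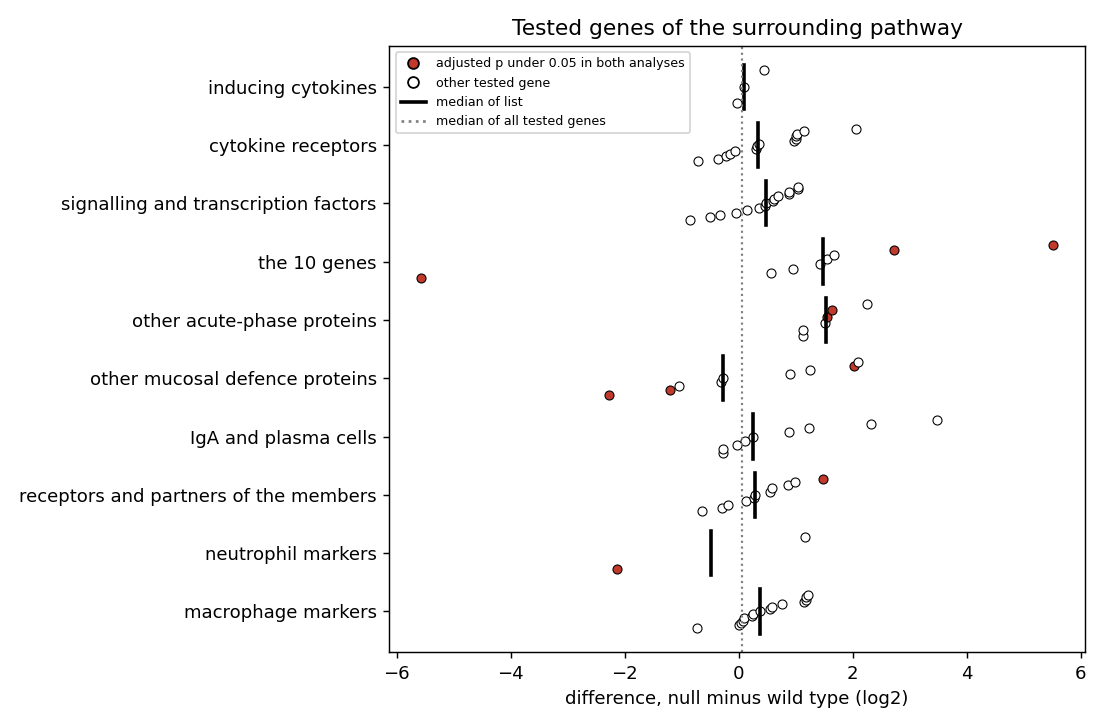
Difference between null and wild type (log2) of every tested gene of 9 related lists and of the 8 tested genes among the 10, with filled points for genes that passed an adjusted p of 0.05 in both analyses, a bar at each list's median and a dotted line at 0.05, the median of all tested genes. No gene of the cytokine, cytokine receptor or signalling lists is filled, whereas Cp and Lrg1 are filled among other acute-phase genes and Pglyrp1, Defb1 and Ang among mucosal defence genes.

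Among promoters, 9 of the 10 genes matched a RefSeq window. An NF-kappa-B-like match was found in 5 of the 9 (Lcn2, Ltf, Pigr, Saa1 and Olfm4), beside the 45.8% of all windows that hold one. A C/EBP-like match was found in 5 of the 9 (Lcn2, Ltf, S100a9, Saa1 and Saa3), beside 9.56% of all windows. No STAT-like letters were found in these windows, and S100a8 and Lyz2 held none of the 3 motifs. The matches are letters in a window and were not measured as bound sites.

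The 12 libraries also show which genes ran most like each of the 10, as a Pearson r that reflects genotype and set together and carries no p. For Lcn2 these were Evpl (r = 0.997), Prps2 and Svs3a, and for Ltf they were Tnfrsf21 (r = 0.997), Cd52 and Abhd2. Pigr ran closest to Tspan8 (r = 0.991), Sh3bgrl3 and Gstm5. Lyz2 ran closest to Igha (r = 0.994), then to an immunoglobulin kappa variable gene and Mrps18a. For Saa1 the nearest were Uhrf1 (r = 0.981), Igkv3-10 and Etv6, and for Saa3 they were Serpinb11 (r = 0.993), Lrrc74b and Gpnmb. Hp ran closest to Krt15 (r = 0.976), Lig1 and Plekhh3, and Olfm4 to Ppp2r5b (r = 0.994), Tent5c and Epb41l4b. The genes named are only the highest of many. An r above 0.95 was reached by 474 genes for Lcn2, 463 for Ltf, 271 for Olfm4 and 162 for Pigr. For Lyz2, Saa3, Hp and Saa1 the counts were 61, 49, 31 and 16. Predicted genes were left out of these counts. Among the 10 themselves, r was 0.98 between Lcn2 and Ltf, 0.97 between Lyz2 and Saa3, 0.32 between Lyz2 and Pigr and -0.94 between Olfm4 and Pigr over the same 12 libraries.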

How the data were processed

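Poly-A RNA of prostate was prepared with a TruSeq kit and sequenced on a HiSeq2000, per the labels' protocols. CASAVA 1.8.2, TopHat, Cufflinks and DESeq and the builds mm9 and GRCm38.p2 are named in the submitters' processing notes, without their roles. The sources used here do not give the strand setting or the handling of reads that map more than once, so overlapping genes and near copies are uncertain. The deposited values are on a log2 scale, already normalized between libraries by the authors, and run from -0.28 to 21.24. Of 39179 IDs, 37607 (96.0%) matched GENCODE annotation of GRCm38.

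Whole-read steps, within 0.1 of a whole number for 98.55% to 100% of high linear values not used to find them, gave the estimated depths. Steps of lower values were not whole, so no count test was run. Genes with at least 4 in 6 or more libraries were tested (16197) with limma (version 3.58.1, R version 4.3.3, trend method, two-sided, Benjamini-Hochberg over all tested genes), after a check on simulated data. A gene could pass that filter through the libraries of a single genotype, which favours a call of higher in that genotype. The sets of libraries come from clustering, not from labels. Differences of low genes are understated on this scale. Summed levels are log2 of summed linear values.

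The 10 genes, the lists and the tests were chosen with earlier results of these data known. Named genes are the 10, up to 4 of each list called in both analyses by lowest p (otherwise the 2 with the lowest p over the 12 libraries), the 3 genes most like each, Saa2 and Lyz1. Any other gene was named after its values were seen. Promoters and motifs used RefSeq windows of GRCm38.p6, and Python 3.11.15 was used for summaries. Some items are not reported here. Alternatives were other scalings, filters, a larger pseudocount, variance and weight settings, and leaving out libraries or sets.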

Additional observations from a re-analysis of the deposited data

How the results depend on the processing

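None of the 8 tested genes changed direction under any alternative run. Their values kept their side of the threshold in 354 of the alternative results and lost the call in 10. Lcn2 and Olfm4 kept both calls throughout, with Lcn2 between 2.43 and 3.04 and Olfm4 between -6.39 and -4.10 over the 12 libraries. Ltf over the set means had an adjusted p of 0.0503 with a variance prior without trend. With the set as a random block limma called 5052 genes instead of 10670, and Saa1 (adjusted p = 0.119) and Saa3 (0.0581) were not called. Over the set means it called 1941 genes with scaling to library totals and 400 with a prior without trend, instead of 662. Scaling to library totals moved the median difference of all genes to 0.37 and split the calls over the 12 libraries into 8611 higher and 2608 lower, instead of 5518 and 5152. Without null libraries 4 to 6, 5 of the 10 genes were called over the 12 libraries, 4 higher and 1 lower, instead of 8, while calls over all tested genes came to 11272 (5816 higher and 5456 lower) instead of 10670. Without wild-type libraries 1 to 3 Lyz2 lost its call (adjusted p = 0.0899), without wild-type libraries 4 to 6 Lyz2 (0.0590) and Saa3 (0.0722) did, and with quantile normalization Saa3 did (0.0525). Leaving out each library in turn gave 9923 to 10637 calls over the 12 libraries and 586 to 715 over the set means, with 8 and 3 of the 10 genes called each time. Over the set means, a prior without trend also ended the calls of Ang, Cd36, Trp63, Defb1 and Mmp8 (adjusted p of 0.0503 to 0.0659), and scaling to library totals that of Defb1 (0.0558), as did quantile normalization (0.0681). The Mmp8 call was also lost with upper-quartile centring (0.0546), without the filter on low values (0.0556) and with a pseudocount of 16 (0.0630). Scaling to library totals added calls for Osmr, Tnfrsf1b, Cebpa, Sdc1, Jchain and Cx3cr1 (0.0240 to 0.0342), and quantile normalization for Sdc1 (0.0397) and Jchain (0.0359). Over the 12 libraries, scaling to library totals added calls for Il1b (limma, adjusted p = 0.0148) and Ttr (0.0158). Lif, with no call, reversed to -0.28 with quantile normalization in both analyses, to -0.0037 without null libraries 4 to 6, to -0.0581 without wild-type libraries 4 to 6 and, over the set means, to -0.0131 without wild-type library 2, in a range of -0.0131 to 0.2111 without each library. The cause of these shifts was not tested.

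Differences ran with transcript length over all genes, with a median of -0.37 in the shortest of 5 length classes, which holds Lcn2, Hp and Lyz2, -0.16 in the next, which holds Saa1 and Saa3, 0.01 in the class of Ltf and Olfm4, 0.18 in that of Pigr and 0.49 in the longest. No paired analysis was possible because the labels give no replicate numbers and the numbers used here only name libraries.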

Other observations

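Several other defence and acute-phase genes, singled out after their values were seen, were higher in every null library than in any wild-type library without passing over the set means, and 21.5% of all tested genes were likewise higher without overlap. Wfdc2, a whey acidic protein of epithelial secretions, stood at 9.61 and 10.75 in the null sets, against 7.66 and 8.49 in the wild-type sets (limma over set means, adjusted p = 0.0556). Steap4, a metalloreductase, stood at 8.66 and 9.34 in the null sets, against 7.55 and 5.94 in the wild-type sets (limma over set means, adjusted p = 0.0728). Lbp, which hands lipopolysaccharide to Cd14, stood at 9.38 and 9.69 in the null sets, against 8.58 and 8.23 in the wild-type sets (limma over set means, adjusted p = 0.0553). Rnase4, a ribonuclease, was lower in every null library, at 10.41 and 11.19 in the null sets, against 11.44 and 12.26 in the wild-type sets (limma over set means, adjusted p = 0.125), where 22.7% of all tested genes were lower without overlap. Reg3g, an antimicrobial lectin, showed no shared direction, with 3.69 and 5.58 in the null sets against 6.14 and 3.76 in the wild-type sets.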
